A study of Mus musculus with 6 samples.

Results

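Elastic fibres and the small proteoglycans of the matrix give the lung its recoil and its scaffold. The genes described here are 10 that encode these components, namely Dcn, Lum, Bgn, Ogn and Fmod for proteoglycans and Eln, Fbn1, Fbln1, Fbln5 and Mfap4 for elastic fibres. They were chosen by name, and a gene was read from its probe sets that the array annotation pairs with exactly 1 gene symbol, taking the probe set with the highest mean over all arrays. In this way 9 of the 10 genes were measured, out of 22180 named genes in all, and Fbn1 was not analysed here.

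Total RNA of lung tissue was hybridized to 6 Affymetrix arrays of the Mouse Gene ST 2.0 type, 1 array for each biological replicate. Cd-treated mice (n = 3) were male C57Bl6 mice that drank water containing 10 mg/L CdCl2, a soluble cadmium salt, for 20 weeks beginning at 8 weeks of age. Control mice (n = 3) were male C57Bl6 mice of the same age that drank water without it, so that all animals were 28 weeks old at the end. All mice in the study ate the same chow, which itself held a trace of Cd. They were housed in groups, and under ketamine and xylazine their airway resistance was tested shortly before the lungs were taken. Values are log2 transcript abundances after robust multiarray averaging (RMA), and every difference is given as Cd-treated minus control.

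The elastic fibre is laid down mostly before adulthood. Tropoelastin, the product of Eln, is deposited on a bundle of fibrillin microfibrils, fibulins and microfibril-associated proteins tie the parts together, and lysyl oxidases crosslink the elastin into a rubber-like core. Small leucine-rich proteoglycans are short core proteins of leucine-rich repeats, most of them carrying chains of chondroitin, dermatan or keratan sulfate, which bind collagen fibrils and set their thickness and spacing. Both sets of proteins are made in the lung mainly by fibroblasts and smooth muscle cells.

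Decorin, encoded by Dcn, is a class I proteoglycan that coats collagen fibrils and binds transforming growth factor beta. Its log2 value was 7.69, 7.98 and 7.87 in Cd-treated replicates 1, 2 and 3, against 8.74, 8.30 and 9.16 in control replicates 1, 2 and 3. Every Cd-treated array lay below every control array. The means were 7.85 ± 0.15 in Cd-treated lung and 8.74 ± 0.43 in control lung (SD, n = 3 each), a log2 difference of -0.89 with a standard error of 0.26 and a 95% interval of -1.50 to -0.28, which left 54.0% of the control level. limma's moderated test gave an unadjusted p of 0.0106, placing Dcn 127th of 41345 probe sets, and an adjusted p of 0.992. An exact 2-sided permutation test gave 0.1, the smallest p that 3 against 3 arrays allow. In whole lung tissue, fewer cells that make a transcript cannot be told apart from less of that transcript per cell.

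Dcn was the 1 gene of the 9 measured that passed an unadjusted p of 0.05, the threshold used in the study's methods. Over all probe sets 2.01% passed that threshold (831 of 41345), and 0.96% passed it with a lower value in Cd-treated lung. Among named genes the shares were 1.19% and 0.622%. After adjustment over all probe sets none passed, in the 9 genes or elsewhere, the smallest adjusted p from limma being 0.992.

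Biglycan, encoded by Bgn, is the class I relative of decorin and also acts as a danger signal when set free from the matrix. It had 9.01, 9.47 and 9.36 in Cd-treated lung, against 9.87, 9.21 and 10.38 in control lung. Control replicate 2 fell among the Cd-treated arrays, and the groups overlapped. The difference was -0.54 with a standard error of 0.32 (limma, unadjusted p = 0.132), and it was -0.27 without control replicate 3. A second probe set of Bgn gave -0.49, with 7.38, 7.43 and 7.61 in Cd-treated lung and 7.96, 7.43 and 8.50 in control lung.

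Lumican, encoded by Lum, is a class II proteoglycan of keratan sulfate type that regulates collagen fibril assembly. It had 4.26, 4.70 and 4.44 in Cd-treated lung, against 5.01, 4.29 and 5.76 in control lung. Only control replicate 2 reached into the Cd-treated range. The difference was -0.55 with a standard error of 0.37 and a 95% interval that ran from -1.43 to 0.33 (limma, unadjusted p = 0.181). Without control replicate 3 it was -0.18.

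Osteoglycin or mimecan, encoded by Ogn, is a class III proteoglycan first found in bone. It had 8.84, 9.12 and 8.72 in Cd-treated lung, against 9.44, 8.75 and 10.09 in control lung. The same control array lay inside the Cd-treated range, and control replicate 3 was the highest. The difference was -0.53 with a standard error of 0.35 and a 95% interval of -1.35 to 0.29 (limma, unadjusted p = 0.17). Without control replicate 3 it was -0.20.

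Fibromodulin, encoded by Fmod, is the close class II relative of lumican and competes with it for a site on collagen. It had 5.27, 5.73 and 5.66 in Cd-treated lung, against 5.56, 5.97 and 5.16 in control lung. Here the order of the control arrays was turned round, with the highest value in control replicate 2 and the lowest in control replicate 3. The difference was -0.01 with a standard error of 0.26 and a 95% interval of -0.63 to 0.61 (limma, unadjusted p = 0.971). A second probe set gave 0.04, with 5.47, 5.34 and 5.47 in Cd-treated lung and 5.26, 5.51 and 5.40 in control lung. On that probe set control replicate 2 was again highest, but control replicate 1 was lowest.

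**Figure D1:**
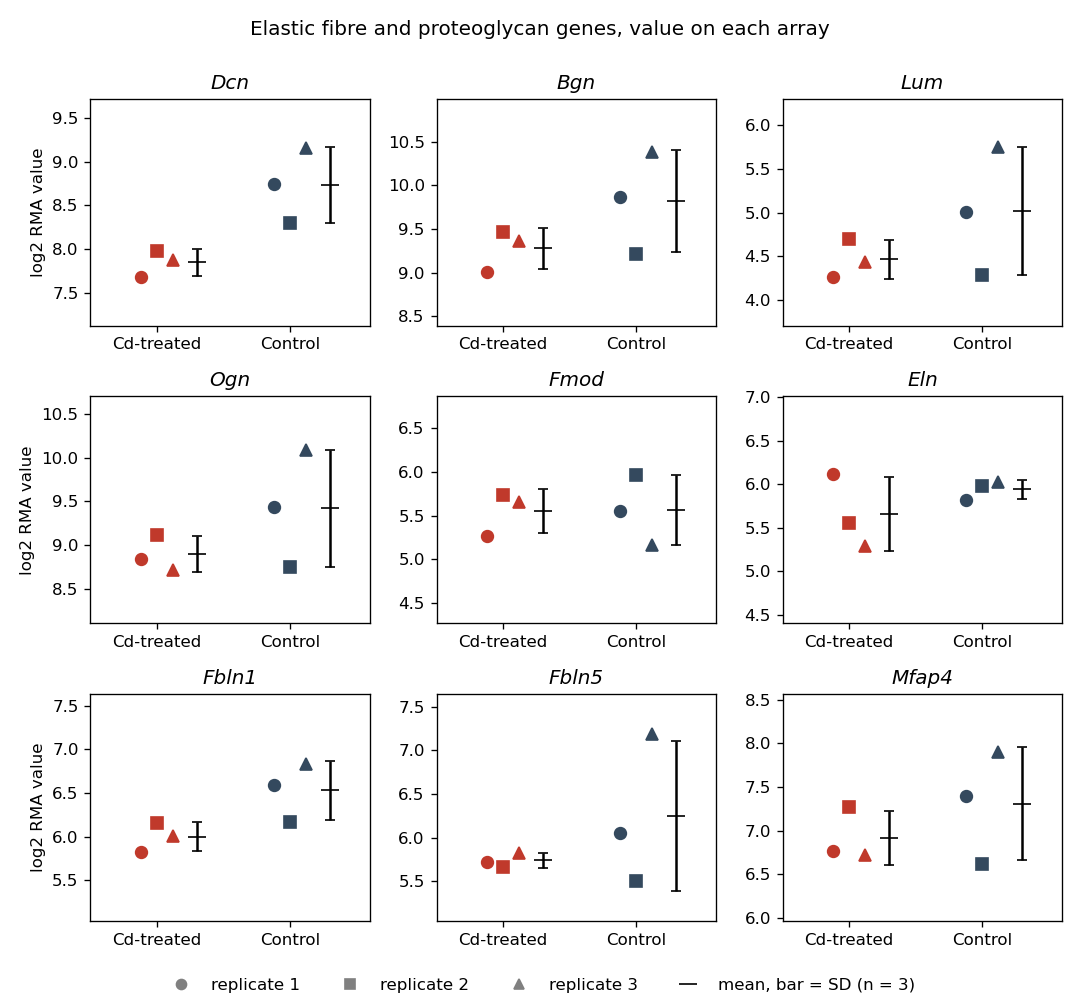
Log2 RMA value (vertical axis, each panel spanning its own range) of the 9 measured genes on each array, Cd-treated left and control right, with the marker shape giving the replicate number and the bar giving the mean ± SD (n = 3). Dcn in Cd-treated lung (7.69 to 7.98) lay below control lung (8.30 to 9.16), and in 7 of the 9 panels the highest point is control replicate 3.

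Among the elastic fibre genes, Eln encodes elastin itself. It had 6.12, 5.56 and 5.29 in Cd-treated lung, against 5.82, 5.98 and 6.03 in control lung. Its Cd-treated arrays spanned the whole range of the 6, from the highest value in replicate 1 to the lowest in replicate 3, whereas the controls lay close together. The means were 5.66 ± 0.42 in Cd-treated lung and 5.94 ± 0.11 in control lung (SD, n = 3 each), and the difference was -0.29 with a standard error of 0.25 and a 95% interval of -0.88 to 0.31 (limma, unadjusted p = 0.291).

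Fibulin-1, encoded by Fbln1, is a calcium-binding protein found in elastic fibres, basement membranes and blood. It had 5.831, 6.162 and 6.014 in Cd-treated lung, against 6.599, 6.164 and 6.835 in control lung. The groups did not overlap, by the narrow gap between replicates 2 of each group. The difference was -0.53 with a standard error of 0.23 and a 95% interval of -1.08 to 0.02 (limma, unadjusted p = 0.0565, and exact permutation p = 0.1). Dcn and Fbln1 were thus 2 of 9 genes with no overlap, both lower in Cd-treated lung, where 3.33% of all named genes had no overlap in that direction and 7.14% in either. With each array centred on its own median the groups of Fbln1 overlapped, and 1 gene of the 9 had none.

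Fibulin-5, encoded by Fbln5, links tropoelastin to microfibrils and to integrins on the cell surface. It had 5.72, 5.67 and 5.83 in Cd-treated lung, against 6.05, 5.50 and 7.19 in control lung. The control arrays held both the lowest and the highest value, and control replicate 3 stood more than 1 log2 unit above the next array. The difference was -0.51 with a standard error of 0.41 (limma, unadjusted p = 0.256), and it was -0.04 without control replicate 3.

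Mfap4 encodes a microfibril-associated glycoprotein of elastic fibres that also binds collagen. It had 6.76, 7.27 and 6.72 in Cd-treated lung, against 7.40, 6.62 and 7.90 in control lung. The lowest and the highest value were again control replicates 2 and 3. The difference was -0.39 with a standard error of 0.35 (limma, unadjusted p = 0.299), and -0.10 without control replicate 3.

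All 9 differences were negative, although both Fmod (0.31) and Eln (0.03) turned positive when each array was centred on a list of fibroblast genes, and Mfap4 was at 0.00 without both arrays numbered 3. Fmod was also positive after cyclic loess normalization (0.01), with the mean of its probe sets (0.01), with array weights (0.12), without Cd-treated replicate 1 (0.13) and without control replicate 2 (0.19). The median over the 9 genes was -0.53, against -0.02 over all named genes and 0.02 over all probe sets. It was -0.54 for the 5 proteoglycan genes and -0.45 for the 4 elastic fibre genes. Leaving out control replicate 2 moved the median to -0.85 and brought 7 of the 9 genes past an unadjusted p of 0.05 in limma, all but Fmod and Eln, where 1.99% of named genes passed with a lower value. Leaving out control replicate 3 moved it to -0.21 and left Dcn as the 1 gene past the threshold (log2 difference -0.68, unadjusted p = 0.0233), where 0.478% of named genes passed with a lower value.

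**Figure D2:**
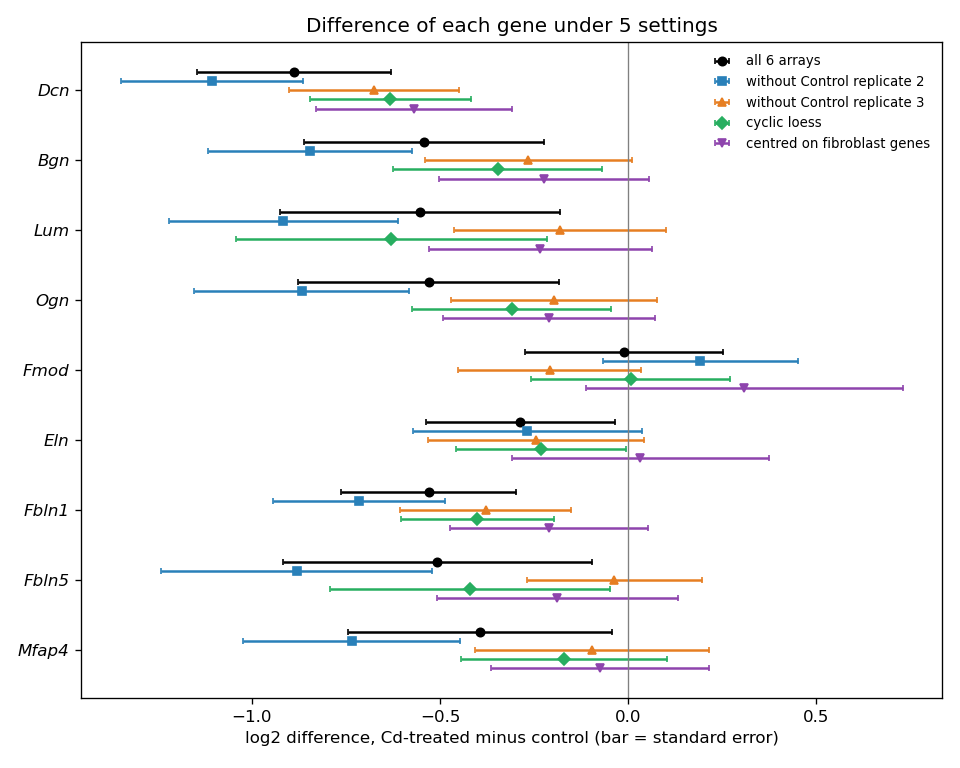
Log2 difference, Cd-treated minus control (horizontal axis, bar = standard error), of the 9 genes with all 6 arrays and under 4 other settings. Dcn ran from -1.11 without control replicate 2 to -0.57 with arrays centred on fibroblast genes, whereas Fmod lay on either side of 0.

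The genes followed 1 profile over the arrays. With each gene centred on its own mean, the mean of the 9 genes was -0.33, -0.09 and -0.29 in Cd-treated replicates 1, 2 and 3, against 0.22, -0.19 and 0.67 in control replicates 1, 2 and 3. Thus control replicate 2 lay within the range of the Cd-treated arrays and control replicate 3 above all others. Of the 9 genes 7 were highest in control replicate 3, where 34.3% of all named genes had their highest value (7617 of 22180). That share depended on level, being 15.7% at mean log2 values of 4 to 5 and 37.4% at 5 to 6. It was 65.2% at 6 to 7, 75.2% at 7 to 8, 73.9% at 8 to 9 and 62.35% at 9 to 11. Over the 6 arrays, which share these libraries, the correlation between genes was 0.985 for Lum with Bgn and with Ogn, 0.982 for Dcn with Fbln1 and 0.977 for Ogn with Mfap4. Fmod ran against the mean of the others (r = -0.57) and Eln was loosely tied to it (r = 0.22), while the remaining 7 genes had r from 0.88 to 0.97 with the mean of the others.

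The start of a gene is where control of its transcription is read, and promoter sequences were available for 5 of the 9 measured genes in the RefSeq promoter table of build GRCm38.p6. They are shown so that the promoters of 4 genes with the shared profile (Bgn, Ogn, Fbln1 and Fbln5) can be set beside that of Fmod. The Fmod probe set used here ran against that profile. Each is the 100 bases before the transcription start, read 5′ to 3′ on the gene's own strand, at chrX:73483501-73483600 (+) for Bgn, chr13:49607915-49608014 (+) for Ogn, chr15:85205849-85205948 (+) for Fbln1, chr12:101819120-101819219 (-) for Fbln5 and chr1:134037154-134037253 (+) for Fmod. Fbln1 and Fbln5 each had 2 starts in the promoter table, of which the one farthest upstream was used. Capitals mark matches, on either strand, to a GC box (GGGCGG), an E-box (CACGTG), an MCAT element (GGAATG) or a TATA box (TATAAA).
Bgn: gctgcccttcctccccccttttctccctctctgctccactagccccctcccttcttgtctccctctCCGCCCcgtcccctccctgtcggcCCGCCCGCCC
Ogn: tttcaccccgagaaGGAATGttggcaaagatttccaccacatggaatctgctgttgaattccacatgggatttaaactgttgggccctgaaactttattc
Fbln1: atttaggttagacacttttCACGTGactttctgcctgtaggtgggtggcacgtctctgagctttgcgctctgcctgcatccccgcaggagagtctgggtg
Fbln5: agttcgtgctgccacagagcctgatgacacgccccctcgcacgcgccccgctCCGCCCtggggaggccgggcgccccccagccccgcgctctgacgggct
Fmod: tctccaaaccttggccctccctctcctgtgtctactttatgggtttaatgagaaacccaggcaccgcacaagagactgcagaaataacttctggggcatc
Bgn held 3 GC boxes, at -34, -10 and -6 from the start, the last pair overlapping by the letters they share. Fbln5 held 1 at -48 and another at -221, Fbln1 an E-box at -81, and Ogn an MCAT element at -86 and, at -229 and -227, a pair of overlapping TATA box matches on opposite strands. Fmod held none of these letters in the 250 bases before its start. Of 32851 promoters of the table, a GC box was found in 32.7%, an E-box in 6.02%, an MCAT element in 12.6% and a TATA box in 12.4% of windows of 250 bases. The GC content of these windows was 64.4% for Bgn, 65.2% for Fbln5, 46.4% for Fbln1, 42.0% for Ogn and 51.2% for Fmod, against a median of 52.4% over all promoters, so that genes with the shared profile lay on both sides of it. A match is a description of the letters alone.

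Control replicate 3 stood apart beyond these genes. Its values were spread with an SD of 1.72, against 1.55 to 1.63 on the Cd-treated arrays and 1.58 and 1.63 on the other control arrays. The mean over 12 markers of skeletal muscle was 8.09 on it, against 5.15 to 5.33 in Cd-treated lung and 5.06 and 5.24 in the other control samples, with Acta1, a skeletal actin, at 10.40. The mean over 8 markers of squamous epithelium was 5.70 on it, against 4.78 to 4.91 in Cd-treated lung and 4.73 and 4.84 in the other control samples. Only 4 of these 8 were highest on it, among them Krt13 at 8.38 and Krt4 at 7.78, whereas Krt6b was lowest on it at 5.845. Sftpc, which marks alveolar type 2 cells, and Scgb1a1, which marks club cells, were named after their values were seen and lay between 11.99 and 12.91 on every array. Their lists varied more. The mean over 7 alveolar type 2 markers was 9.04 to 9.46 in Cd-treated lung and 9.07 to 9.96 in control lung. Of these 7 markers 5 were highest in control replicate 3, among them Slc34a2 at 10.10, against 8.08 in control replicate 2. The mean over 6 club and ciliated cell markers was 8.78 to 9.72 in Cd-treated lung and 9.29 to 9.50 in control lung.

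Fibroblast genes moved with the matrix genes. The mean over 15 fibroblast markers, which include collagen chains such as Col1a2 and the surface receptor Pdgfra, was 6.78, 6.84 and 6.73 in Cd-treated lung, against 7.11, 6.69 and 7.51 in control lung. As for the 9 genes, control replicates 1 and 3 lay above the Cd-treated arrays and control replicate 2 did not, although for the fibroblast markers it was the lowest of all arrays. Of the 15 markers 13 were lower in Cd-treated lung by their mean, 2 of them at an unadjusted p under 0.05 (Col1a2 at -0.70, unadjusted p = 0.041, and Col3a1 at -0.75, unadjusted p = 0.0356, limma), where 1.19% of named genes passed in either direction, and 13 were highest in control replicate 3. Their part in the differences of the matrix genes was not tested.

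Some lists of other cell types had a like profile and others did not. Means over markers of endothelium (7.03 to 7.46 in Cd-treated lung, 6.79 to 8.30 in control lung) and alveolar type 1 cells (7.33 to 7.67 in Cd-treated lung, 7.14 to 8.33 in control lung) were likewise lowest in control replicate 2 and highest in control replicate 3. Smooth muscle markers, 9 in all, had 6.42 to 7.29 in Cd-treated lung and 7.35 to 7.68 in control lung with no overlap, and cardiac muscle markers, 10 in all, had 6.93 to 7.78 in Cd-treated lung and 7.99 to 8.59 in control lung, also with none. The 7 markers of tendon and skin connective tissue did not overlap either, with 4.83 to 4.96 in Cd-treated lung and 5.07 to 5.40 in control lung, and none of them passed an unadjusted p of 0.05 in limma. In the smooth muscle list 2 genes had an unadjusted p under 0.05 in limma, Actg2 at -0.93 and Des at -0.86. Both were highest in control replicate 3. In the cardiac muscle list 4 genes passed, among them Sln at -2.29. Markers of cartilage, the tissue of the airway rings, had 4.73 to 5.09 in Cd-treated lung and 4.67 to 4.92 in control lung, and were lowest in control replicate 3. Most of these cartilage markers were dim. At mean log2 values of 4 to 5, 15.7% of all named genes were highest in control replicate 3. The part of these lists in the differences of the 9 genes was not tested.

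**Figure D3:**
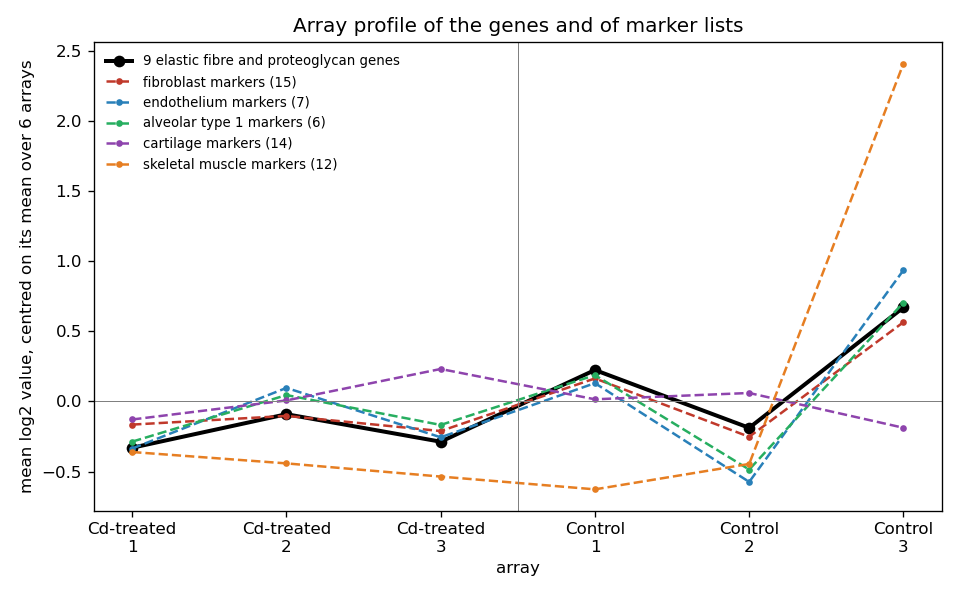
Mean log2 value centred on its mean over the 6 arrays (vertical axis) on each array (horizontal axis, Cd-treated left of control), for the 9 genes and for 5 lists of cell type markers with the number of genes in brackets. The line of the 9 genes, from -0.33 in Cd-treated replicate 1 to 0.67 in control replicate 3, ran with those of fibroblast, endothelium and alveolar type 1 markers, and the skeletal muscle line lay apart, below them in control replicate 1 and far above them in control replicate 3.

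Set against the fibroblast list on the same array, most of the differences shrank. Subtracting the list shifts the difference of every gene by the same amount, so this shrinkage was fixed by the list's own difference. The list itself holds matrix genes such as Col1a2 and Col3a1. The value of Dcn relative to the mean of the 15 fibroblast markers was 0.91, 1.14 and 1.14 in Cd-treated lung, against 1.63, 1.61 and 1.65 in control lung. The groups did not overlap, the SD of the control values was 0.02 (n = 3), and the difference was -0.57 (exact permutation p = 0.1, unadjusted p = 0.0582 in limma). Fbln1 relative to the list had -0.95, -0.68 and -0.72 in Cd-treated lung, against -0.51, -0.53 and -0.675 in control lung. There was again no overlap, but only by the narrow gap between -0.68 in Cd-treated replicate 2 and -0.675 in control replicate 3. The difference was -0.21 with a standard error of 0.26 (exact permutation p = 0.1, unadjusted p = 0.444 in limma). The other 7 genes overlapped between the groups, with differences from -0.23 for Lum to 0.31 for Fmod. With arrays centred on this list, 0.329% of named genes (73 of 22180) were lower in Cd-treated lung without overlap. The same centring moved the median difference of all named genes up to 0.30.

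Dcn was also set against its class I relative Bgn. Among all named genes the median difference was -0.28 at the level of Dcn (8 to 9) and -0.15 at that of Bgn (9 to 11). The log2 value of Dcn less that of Bgn was -1.33, -1.48 and -1.49 in Cd-treated lung, against -1.13, -0.92 and -1.22 in control lung, a difference of -0.35 without overlap (exact permutation p = 0.1, the smallest possible). The groups overlapped in the other pairs compared, Lum less Fmod (-0.54, exact permutation p = 0.5), Fbln1 less Fbln5 (-0.02, exact permutation p = 0.9) and Eln less Fbln5 (0.22, exact permutation p = 0.7). None of these 4 pairs could reach an exact p of 0.05 with 3 arrays a group.

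The size of a difference was tied to the level of a gene over the whole array. Among named genes the median difference was 0.08 at mean log2 values of 4 to 5, -0.03 at 5 to 6, -0.18 at 6 to 7, -0.26 at 7 to 8, -0.28 at 8 to 9 and -0.15 at 9 to 11. At values of 8 to 9, 87.6% of genes had a negative difference. Dcn, at a mean of 8.29, thus lay at -0.89 beside a median of -0.28 for its level. Lum, at 4.74, lay at -0.55 beside a median of 0.08, whereas Fmod at -0.01 lay near the median of -0.03 for its level, and Mfap4 at -0.39 was closer to its own (-0.26). Lum was dim, its mean lying below the median of every array (4.855 to 5.124). Its difference was -0.18 without control replicate 3. Cyclic loess normalization, which bends arrays onto each other along the level, gave Dcn -0.63 (limma, unadjusted p = 0.0219) and a median over the 9 genes of -0.35.

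**Figure D4:**
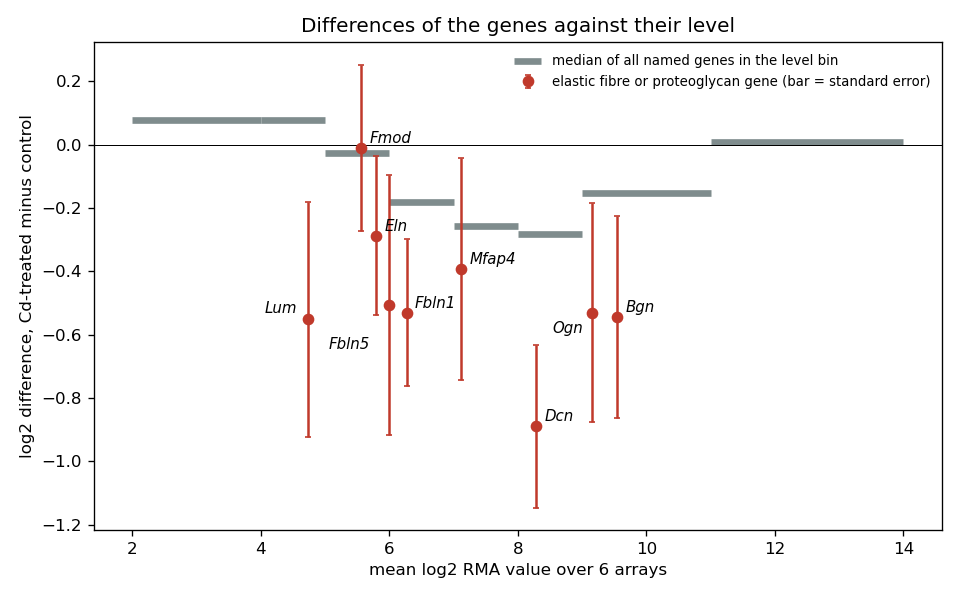
Log2 difference, Cd-treated minus control (vertical axis, bar = standard error), of each of the 9 genes against its mean log2 RMA value over 6 arrays (horizontal axis), with grey bars at the median difference of all named genes of that level. The medians lie at 0.08 for values of 4 to 5 and at -0.28 for 8 to 9, and Dcn at -0.89 and Lum at -0.55 lie farther below the bars than the others.

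Genes for small leucine-rich proteoglycans lie in clusters, and their neighbours in the GRCm38.p6 gene table could be set beside them. On chromosome 10, Dcn is followed by Lum, then by Kera (keratocan, -0.08) and Epyc (epiphycan, 0.28), so that 3 of 4 were negative and 1 passed an unadjusted p of 0.05. On chromosome 13, Ecm2 (-0.41), Aspn (-0.81), Omd (-0.31) and Ogn (-0.53) stand side by side, all 4 negative and all 4 highest in control replicate 3. On chromosome 1, Optc (opticin, 0.17) and Prelp (-0.49) adjoin Fmod (-0.01). Kera, Epyc and Omd had mean values of 3.56, 4.01 and 2.91, among the dimmer named genes, and whether they lay above background was not tested.

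Aspn encodes asporin, a class I proteoglycan without a chain that binds collagen and transforming growth factor beta. It had 6.21, 5.98 and 5.60 in Cd-treated lung, against 6.52, 6.53 and 7.19 in control lung. As with Dcn, no Cd-treated array reached a control array, and the difference of -0.81 with a standard error of 0.27 had an unadjusted p of 0.0191 in limma. Among the other small leucine-rich proteoglycans it was the 1 gene of 12 measured to pass, with 7 of 12 negative and a list median of -0.06. Prelp, a basement membrane anchor, was at -0.49 (unadjusted p = 0.187) and Omd, osteomodulin of mineralized tissue, at -0.31 (unadjusted p = 0.214). Chad, chondroadherin of cartilage and tendon, was at -0.94 (unadjusted p = 0.146), with Cd-treated replicate 3 at 4.96, the other Cd-treated arrays at 7.26 and 7.01 and the control arrays at 7.26 to 7.41.

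Of the elastic fibre and microfibril partners 22 of 25 were measured. In this list 16 were negative, the median was -0.13, and Mfap5 alone passed. Mfap5, a small microfibril glycoprotein that binds fibrillin, had 6.62, 6.96 and 6.79 in Cd-treated lung, against 7.61, 6.95 and 8.17 in control lung. Control replicate 2 lay just below the highest Cd-treated array, and the difference was -0.79 with a standard error of 0.32 (limma, unadjusted p = 0.0432). Emilin1, which encodes an elastin interface protein, was higher in every Cd-treated array (6.02, 5.81 and 5.96) than in any control array (5.55, 5.25 and 5.66), by 0.44 with an unadjusted p of 0.0564 in limma. Mfap3 at -0.54 (unadjusted p = 0.128) and Vtn, encoding vitronectin, at -0.47 (unadjusted p = 0.168) did not pass.

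None of the 7 measured genes for crosslinking enzymes passed an unadjusted p of 0.05, with 6 of 7 negative and a median of -0.38. Lox, the lysyl oxidase that crosslinks elastin and collagen, had 4.49, 4.85 and 4.28 in Cd-treated lung, against 5.17, 4.79 and 6.25 in control lung. Control replicate 2 was inside the Cd-treated range, and the difference was -0.86 with a standard error of 0.39 (limma, unadjusted p = 0.062). Loxl1, the lysyl oxidase needed to renew elastic fibres in adult mice, was at -0.48 (unadjusted p = 0.164), the transglutaminase gene Tgm2 at -0.38 (unadjusted p = 0.196) and the lysyl hydroxylase gene Plod1 at -0.36 (unadjusted p = 0.205).

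Proteases that can cleave elastin or free it from the matrix gave no call among 11 genes, of which 9 were negative with a median of -0.17. Mmp14, the membrane protease that activates gelatinase A, was at -0.56 (limma, unadjusted p = 0.0609), and Mmp2, gelatinase A itself, at -0.64 (unadjusted p = 0.125). Mmp9, the second gelatinase, was at -0.31 (unadjusted p = 0.252) and Mmp7, matrilysin of airway epithelium, at 0.31 (unadjusted p = 0.397).

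Among the large, basement membrane and cell surface proteoglycans all 26 listed genes were measured, with 14 negative and a median of -0.02. Sdc4, encoding the heparan sulfate syndecan-4 of focal adhesions, had 7.04, 7.19 and 6.50 in Cd-treated lung, against 7.38, 7.97 and 7.38 in control lung (difference -0.67, standard error 0.27, limma unadjusted p = 0.0432). Prg4, encoding the lubricant lubricin, had 4.46, 4.24 and 4.49 in Cd-treated lung, against 3.80 to 4.05 in control lung (difference 0.44, standard error 0.18, limma unadjusted p = 0.0467). Both were without overlap, Sdc4 lower and Prg4 higher in Cd-treated lung, and neither was highest in control replicate 3. Of all named genes 0.564% passed with a higher value in Cd-treated lung. Ncan, encoding neurocan, was at 0.50 (unadjusted p = 0.0737) and Smoc1, a calcium-binding matrix protein gene, at 0.36 (unadjusted p = 0.148).

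Enzymes that build the glycosaminoglycan chains of these proteins gave no call in 21 measured genes, with 13 negative and a median of -0.09. The smallest p was that of Dsel, a dermatan sulfate epimerase homologue, at -0.36 (unadjusted p = 0.175), before Chst12, a chondroitin sulfotransferase, at -0.41 (unadjusted p = 0.214), Xylt2, which starts the chain, at -0.28 (unadjusted p = 0.216) and Ugdh, which makes its glucuronic acid donor, at -0.31 (unadjusted p = 0.231). Over all 6 lists 99 of 107 genes were measured and 3 passed lower and 1 higher, with 65 negative, a median of -0.11 and 51 highest in control replicate 3. Counts of negative genes in these lists stand beside the shares by level given above for all named genes. The number of calls changed with single arrays, being 0 without Cd-treated replicate 3 and 14 without control replicate 2. Without Cd-treated replicate 3, a fit with fewer arrays, the differences of the 4 genes kept their signs, at -0.79 for Mfap5, -0.65 for Aspn, -0.46 for Sdc4 and 0.40 for Prg4. That of Mfap5 was -0.49 without control replicate 3.

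**Figure D5:**
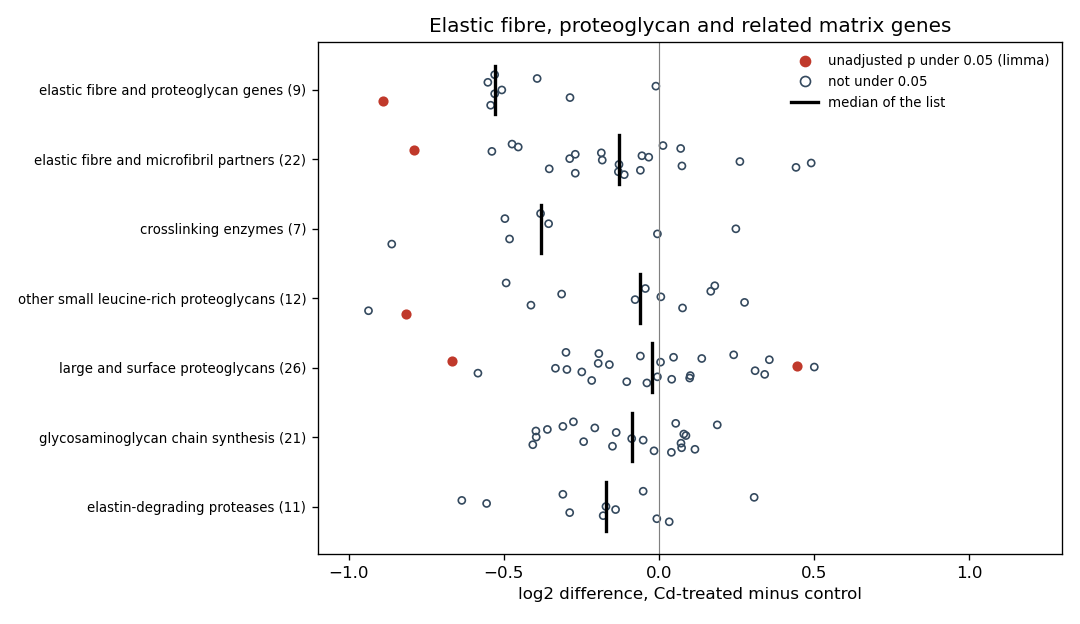
Log2 difference, Cd-treated minus control (horizontal axis), of the 9 genes and of 6 lists of related matrix genes (rows, number measured in brackets), filled where the unadjusted p from limma was under 0.05, with the list median as a bar. The median of the 9 genes lies at -0.53 and those of the related lists lie between -0.38 and -0.02, with Dcn, Mfap5, Aspn and Sdc4 filled on the left and Prg4 on the right.

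The genes most like the mean profile of the 9, by Pearson's r over the 6 arrays among 22171 other named genes, were Sod3 (0.997), Anxa5 (0.994), Serping1 (0.994), Mfap5 (0.993) and Tlr3 (0.992). Sod3 encodes extracellular superoxide dismutase, Anxa5 annexin A5, Serping1 the C1 inhibitor of complement, and Tlr3 a receptor for double-stranded RNA. Sod3 had 6.34, 6.47 and 6.39 in Cd-treated lung, against 6.70, 6.42 and 6.91 in control lung, with control replicate 2 again inside the Cd-treated range and control replicate 3 on top. Serping1 was at -0.71 with a standard error of 0.35 (limma, unadjusted p = 0.0794). In all, 929 genes (4.19%) had an r of at least 0.9 with that profile, over arrays that share the same 6 libraries.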

How the data were processed

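Lung RNA of 3 Cd-treated and 3 control mice was amplified with a NuGEN Ovation kit and hybridized to Affymetrix Mouse Gene ST 2.0 arrays. The authors converted the scans to RMA with the R package oligo, whose RMA subtracts background, brings the arrays to 1 distribution and combines the probes of a probe set, and deposited the values as log2, without pooling. Versions of RMA, oligo and limma are not given in the sources used here. From the 41345 deposited probe sets, 23521 had 1 gene symbol, 1820 several and 16004 none, and 1082 of 22180 genes had several probe sets. All 9 measured genes were matched by gene number to the reference gene table. The genome build of the array annotation is not given in the sources used here, so coordinates are those of the promoter table.

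Groups were compared over all probe sets with limma 3.58.1 in R 4.3.3, with group as the only term and Benjamini-Hochberg adjustment over all probe sets, after the steps had been tested on simulated data. The number of arrays limits the precision. The labels call the arrays biological replicates and do not name the animals, so p-values measure the spread between these samples. Genes and lists were chosen with earlier results of these data known. Genes named were the members, up to 4 of each related list with the smallest unadjusted p, the 5 genes most correlated with the members' mean, and the markers of widest range, while other markers, Sftpc, Scgb1a1 and the cluster neighbours were named after their values were seen. The lists were written from general knowledge, and Kera, Chad, Acan and Cspg4 each stand in a marker list and a matrix list. Alternatives were the methods' t-test, a prior that was trended and robust, a block for replicate number, other normalizations (cyclic loess, quantiles once more, centring on the median), array weights, filters on level and symbols, the mean of a gene's probe sets, and leaving out arrays. Centring on the fibroblast list was chosen after seeing the data.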

Additional observations from a re-analysis of the deposited data

How the results depend on the processing

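The median over the genes stayed negative in all 18 alternatives, from -0.85 without control replicate 2 to -0.17 without both arrays numbered 3. With the filter at a mean of at least 5 it was taken over 8 genes, since Lum, at a mean of 4.74, was left out. The difference of Dcn stayed negative and kept an unadjusted p under 0.05 in 17 of them, the exception being arrays centred on the fibroblast genes (-0.57, unadjusted p = 0.0582, 0 of the 9 genes past the threshold), a setting that moved the median of all probe sets to 0.33 and gave 856 probe sets higher and 60 lower, against 434 and 397 in the data as deposited. Centring on the array median gave 313 higher and 461 lower, and 1 of the 9 genes without overlap. Genes of the 9 past the threshold numbered 3 with array weights (Dcn, Bgn and Fbln1), 2 among probe sets with 1 symbol only (Dcn and Fbln1), and 1 to 7 when each array was left out, the 7 being without control replicate 2. Genes without overlap numbered 2 to 7 when each array was left out, the 7 again without control replicate 2. Dropping an array makes a gap between the groups easier to reach for any gene. With all arrays kept, 3.33% of named genes lay lower in Cd-treated lung with no overlap. That share rose to 12.4% once control replicate 2 had been dropped, and to 6.22% when the third control array was dropped instead. The probe sets past the threshold, 831 in all, became 10119 with array weights (903 of them after adjustment), 306 at a mean of at least 5, 427 among those with 1 symbol, and 607 (Cd-treated replicate 3 left out) to 1650 (control replicate 2 left out) over the single arrays, with 1381 once Cd-treated replicate 1 was left out. The 4 related genes past the threshold became 2 with the trended and robust prior, 2 with cyclic loess, 25 with array weights, 7 with 1 symbol only, 0 without both arrays numbered 3, and 0 to 14 when each array was left out. The replicate block gave 449 probe sets and 1 related gene past the threshold and kept Dcn (unadjusted p = 0.0286). Deviations from the group means correlated at -0.49, 0.07 and -0.51 for arrays with the same number, and Cd-treated replicate 1 correlated best with control replicate 3. Such deviations cancel out within each group of 3 arrays, so they cannot tell whether the numbers pair the samples. The labels do not say. The array weights were 6.41 for Cd-treated replicate 2 and 5.93 for control replicate 1, against 0.23 to 0.60 for the other 4 arrays, so that fit came close to 1 array against 1 and its calls support nothing. The cause of the other changes was not tested. Centring on the fibroblast genes was chosen after seeing the data. With 3 arrays a group, intervals such as -1.43 to 0.33 for Lum leave both a loss and a small gain within reach.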
